A study of Homo sapiens with 6 samples.

Results

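The Wnt and beta-catenin target genes studied here are 10 genes, AXIN2, LGR5, NKD1, TCF7, LEF1, RNF43, ZNRF3, SP5, DKK1 and TBX3. They were chosen by name, with earlier results of these data known. Rows with values were found for 8 of the 10 among the 16305 genes of the deposited tables, while NKD1, an antagonist that binds Dishevelled, and LEF1, a TCF/LEF transcription factor, were not analysed here. RNA-seq was performed on Huh7-R cells (Huh7SR in the sample labels), a pool of cells derived from the human hepatocellular carcinoma cell line Huh7 by long-term exposure to sorafenib. The resistant cells are maintained in sorafenib but were free of it at the time of treatment. Cells received fostamatinib, an inhibitor of spleen tyrosine kinase, or its solvent DMSO as the vehicle control, with 3 samples in each group. The authors did not detect the protein of this kinase in Huh7 cells. The labels give 24 h of treatment, and they give a concentration of 2 µM for both groups.

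Wnt proteins bind Frizzled receptors together with the co-receptors LRP5 and LRP6. The bound receptors restrain a destruction complex built on AXIN and APC that otherwise marks beta-catenin for degradation. Beta-catenin that escapes enters the nucleus and activates genes with TCF/LEF factors, and many of these targets encode inhibitors of the pathway itself. In liver the pathway is best known for pericentral zonation, the set of genes used by hepatocytes around the central vein, and for frequent activating mutations in hepatocellular carcinoma.

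TCF/LEF factors recognise a short word that opens with CTTTG, and promoter windows were read to show where such words lie in the target genes. RefSeq promoter windows (GRCh38.p14, 250 bases before to 50 after the annotated start) were found for 5 of the 10 genes, SP5, DKK1, TCF7, LEF1 and RNF43. AXIN2, NKD1, LGR5, ZNRF3 and TBX3 were not matched. The 4 words searched, on both strands, were CTTTGAA and the words that differ from it by ending in AT, TA or TT, and at least 1 of the 4 was present in 13.8% of the 35116 promoter windows. The SP5 window held 3 matches, a number reached by 0.179% of all windows, and the DKK1 window held 2, where 1.58% of all windows held 2 or more. TCF7 held 1 match in the window of 1 of its 2 annotated starts, and none was found in the windows of RNF43 or LEF1. The windows of SP5 (chr2:170715087-170715386, + strand) and DKK1 (chr10:52314031-52314330, + strand) are shown because they carry the most matches and belong to a gene that rose (DKK1) and to one that did not pass the test (SP5). Capitals mark the matches, none of which overlap. They begin at positions 103, 142 and 167 of the SP5 window, and at positions 156 and 175 of the DKK1 window, counted from 1 at the 5′ end.
SP5: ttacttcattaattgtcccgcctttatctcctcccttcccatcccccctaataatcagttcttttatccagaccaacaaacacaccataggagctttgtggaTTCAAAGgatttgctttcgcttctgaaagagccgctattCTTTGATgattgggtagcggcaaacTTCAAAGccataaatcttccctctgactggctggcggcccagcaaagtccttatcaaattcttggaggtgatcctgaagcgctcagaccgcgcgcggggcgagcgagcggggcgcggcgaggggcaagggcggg
DKK1: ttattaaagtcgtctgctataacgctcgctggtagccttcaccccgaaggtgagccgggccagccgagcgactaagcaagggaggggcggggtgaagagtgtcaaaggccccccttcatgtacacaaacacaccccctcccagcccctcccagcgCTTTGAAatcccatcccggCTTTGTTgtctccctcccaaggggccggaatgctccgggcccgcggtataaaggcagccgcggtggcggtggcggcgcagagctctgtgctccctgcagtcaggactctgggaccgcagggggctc
A match describes these letters only, and binding was not measured.

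Between 13303451 and 15272737 reads fell on the listed genes of each sample, and 100% of the values gave back whole reads to within 0.05. All 8 hepatocyte lineage markers had values, with summed levels of 4140 to 4410 CPM (counts scaled to a common library size) in the DMSO samples and 5320 to 5660 CPM after fostamatinib. Values were found for 2 of 6 leukocyte, 1 of 4 endothelial and 5 of 7 stellate cell and fibroblast markers, and PTPRC, VWF and CDH5, which define leukocytes and endothelium, were not analysed here. The leukocyte sum was 9.83 to 11.2 CPM with DMSO and 9.67 to 11.7 CPM with fostamatinib, with 0 of 2 genes called. For the endothelial list only PECAM1 had values (6.13 to 6.96 against 8.76 to 9.93 CPM), and it rose. The stellate cell and fibroblast sum was 297 to 306 against 308 to 312 CPM, where COL1A2 and PDGFRB rose and LUM fell. In a bulk sample, fewer cells with a transcript and less of it per cell cannot be told apart. Nothing in the sources states that samples of 1 group were separate cultures, so the p-values measure the spread between these samples, which may be technical.

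Of the 8 target genes with values, 4 rose after fostamatinib (LGR5, TBX3, RNF43 and DKK1) and the other 4 (ZNRF3, SP5, TCF7 and AXIN2) did not pass the test. The test was limma's linear model on log2 CPM, with Benjamini-Hochberg adjustment over all 16305 genes and a threshold of 0.05. It called 47.8% of all genes tested, with 23.3% of all genes higher and 24.5% lower. The share of changed genes among the targets, 4 of 8, was therefore near the background. The groups did not overlap for these 4, as for 54.1% of all genes. No target gene was called lower, with 0 of 8 by limma, 0 at an unadjusted p under 0.05 and 0 by limma-voom. The median log2 fold change was 0.25 over the 8 genes and 0.00 over all genes. Every one of the 8 had at least 5 reads in 2 of 3 samples in both groups, so none entered the tables through 1 group alone.

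**Figure D1:**
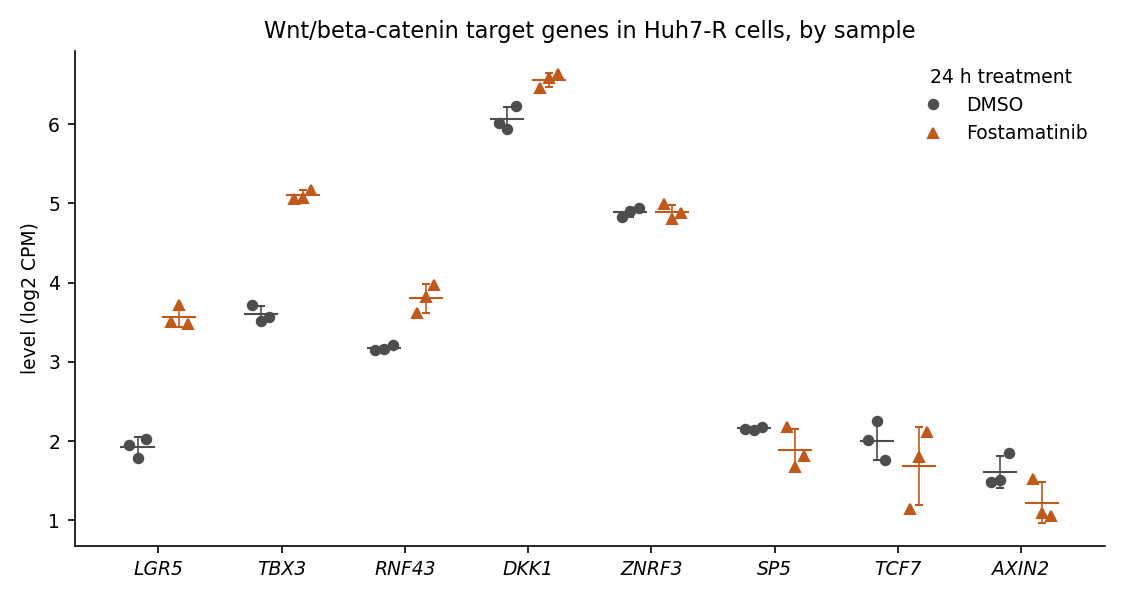
Levels of the 8 target genes in log2 CPM (y axis) in each DMSO (circles) and fostamatinib (triangles) sample of Huh7-R cells, with the mean and SD of 3 samples per group. The groups are apart for LGR5, TBX3, RNF43 and DKK1, and overlap for ZNRF3, SP5, TCF7 and AXIN2.

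LGR5, a receptor for R-spondins and a marker of Wnt-dependent stem cells, had the largest change of the 8 genes. It lies on chromosome 12 of GRCh37 (the build hg19 of the files) from 71833578 to 71980090 on the + strand. Its reads numbered 53, 52 and 60 with DMSO, compared with 156, 187 and 147 with fostamatinib. Every fostamatinib sample was higher than every DMSO sample, and the 95% Poisson intervals of single libraries, which cover counting error only, reached at most 77.2 reads under DMSO and at least 124 after fostamatinib. The level rose from 1.92 ± 0.12 log2 CPM (SD, n = 3) to 3.57 ± 0.13 log2 CPM (SD, n = 3), which is a 3.13-fold difference. The log2 fold change was 1.65 ± 0.14 (SE), with an adjusted p of 1.57e-12 in limma's test, and 1.45% of all genes had a higher one.

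TBX3, a T-box transcription factor that is a known beta-catenin target in liver, was the other gene with a change of more than 2-fold. It lies on chromosome 12 from 115108060 to 115121980 on the - strand. There were 181, 174 and 176 reads of TBX3 with DMSO, compared with 457, 479 and 478 with fostamatinib. The samples within each group lay close together, and the groups did not overlap. Its level rose from 3.60 ± 0.11 to 5.10 ± 0.06 log2 CPM (SD, n = 3 each), a 2.83-fold difference. The log2 fold change was 1.5 ± 0.08 (SE), with an adjusted p of 3.13e-17 in limma's test, with a higher value in 1.93% of all genes. For both LGR5 and TBX3 the exact permutation test over samples gave a two-sided p of 0.1, the smallest that 3 samples against 3 allow.

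RNF43 and ZNRF3 are related membrane E3 ubiquitin ligases that remove Frizzled receptors from the cell surface, and R-spondins with LGR receptors block their action. RNF43 (chromosome 17, 56431037 to 56494956, - strand) had 122, 136 and 137 reads with DMSO, compared with 168, 201 and 208 with fostamatinib. The fostamatinib samples were all higher, and more spread than the DMSO samples, at 3.80 ± 0.18 against 3.17 ± 0.03 log2 CPM (SD, n = 3 each). RNF43 rose with a log2 fold change of 0.63 (95% confidence interval 0.41 to 0.85, adjusted p = 9.00e-06 from limma). ZNRF3 (chromosome 22, 29279560 to 29453476, + strand) had 390, 455 and 455 reads with DMSO, compared with 436, 396 and 391 with fostamatinib. Its groups overlapped, with a log2 fold change of 0.00 (95% confidence interval -0.14 to 0.15, adjusted p = 0.978 from limma), so a change as large as that of RNF43 lies outside its interval, though the difference between the genes was not tested. The sign of the ZNRF3 value turned without DMSO replicate 1 (-0.03) or fostamatinib replicate 1 (-0.05), and with the library size alone as the scale (-0.01).

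The other feedback inhibitors were DKK1, a secreted protein that blocks LRP5 and LRP6, and AXIN2, a scaffold of the destruction complex often used as a readout of Wnt signalling. DKK1 (chromosome 10, 54074041 to 54077802, + strand) had 887, 938 and 1119 reads with DMSO, compared with 1212, 1364 and 1310 with fostamatinib. All fostamatinib samples were above the DMSO samples, and the level rose from 6.06 ± 0.15 to 6.56 ± 0.09 log2 CPM (SD, n = 3 each). This was a 1.41-fold difference, with a log2 fold change of 0.49 ± 0.06 (SE), with an adjusted p of 1.32e-08 in limma's test. AXIN2 (chromosome 17, 63524681 to 63557766, - strand) had 38, 43 and 53 reads with DMSO, compared with 39, 30 and 27 with fostamatinib. The fostamatinib sample with 39 reads lay within the DMSO group. The AXIN2 log2 fold change was -0.39 (95% confidence interval -0.82 to 0.04, adjusted p = 0.135 from limma), an interval that holds both no change and a clear fall but no rise of the size of LGR5. At this depth the Poisson interval of a single AXIN2 library ran, for 30 reads, from 20.2 to 42.8 reads.

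TCF7 and SP5 are transcription factors of the pathway, TCF7 a DNA-binding partner of beta-catenin and SP5 a zinc finger protein induced by Wnt signals. TCF7 (chromosome 5, 133450372 to 133487556, + strand) had 55, 72 and 50 reads with DMSO, compared with 30, 49 and 57 with fostamatinib. The fostamatinib samples were the most scattered of any target gene (SD 0.49 log2 CPM), and the log2 fold change was -0.32 (95% confidence interval -0.74 to 0.10, adjusted p = 0.210 from limma). In the annotation an exon of TCF7 overlaps one of SKP1 on the opposite strand, which had 2429 to 2921 reads per sample. The library kit marks strand, but whether the counting used it is not given in the sources used here. The promoter window of SP5 held 3 matches to the TCF/LEF words. SP5 (chromosome 2, 171571847 to 171574588, + strand) had 61, 67 and 67 reads with DMSO, compared with 62, 45 and 46 with fostamatinib. The DMSO samples were nearly equal (SD 0.02 log2 CPM), and 1 fostamatinib sample was as high as they were. The SP5 log2 fold change was -0.27 (95% confidence interval -0.63 to 0.08, adjusted p = 0.204 from limma).

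**Figure D2:**
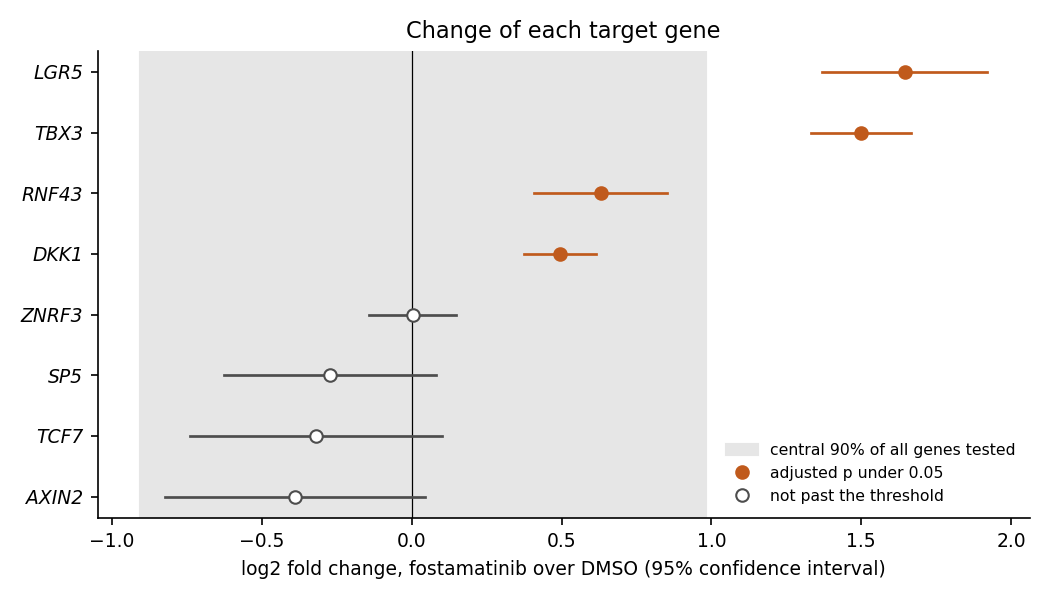
Log2 fold change of each target gene, fostamatinib over DMSO (x axis), with its 95% confidence interval from limma, where filled points have an adjusted p under 0.05. The grey band, from -0.91 to 0.98, holds the central 90% of all 16305 genes, and LGR5 (1.65) and TBX3 (1.5) lie beyond it.

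Levels were compared between genes per length, as CPM per kilobase of the canonical transcript. In the DMSO samples DKK1 was highest by far, with 37.2 ± 4.04 CPM per kilobase (SD, n = 3), followed by ZNRF3 with 4.31 ± 0.17. TBX3 (2.57 ± 0.19), SP5 (2.19 ± 0.03), RNF43 (2.00 ± 0.04) and TCF7 (1.23 ± 0.21) came next, in CPM per kilobase, and no neighbours among these overlapped. LGR5 (0.829 ± 0.071) and AXIN2 (0.723 ± 0.106) were lowest, and their samples overlapped. After fostamatinib DKK1 was still highest, with 52.2 ± 3.06 CPM per kilobase, and TBX3 (7.25 ± 0.33) stood above ZNRF3 (4.32 ± 0.29). RNF43 (3.10 ± 0.39) and LGR5 (2.59 ± 0.24) overlapped, and both lay above SP5 (1.83 ± 0.35), TCF7 (1.02 ± 0.32) and AXIN2 (0.554 ± 0.104). LGR5 stood beside AXIN2 at the bottom of the order in the vehicle samples and beside RNF43 after the drug.

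Ratios of reads between target genes within 1 library do not depend on the scaling of libraries. The pairs were chosen after the values were seen, so the ratios are given without a test. There were 1.39, 1.21 and 1.13 LGR5 reads per AXIN2 read with DMSO, compared with 4.0, 6.23 and 5.44 with fostamatinib. TBX3 reads per AXIN2 read numbered 4.76, 4.05 and 3.32 under DMSO, and 11.7, 16.0 and 17.7 after fostamatinib. For the ligases, RNF43 reads per ZNRF3 read were 0.313, 0.299 and 0.301 under DMSO, and 0.385, 0.508 and 0.532 after fostamatinib. LGR5 reads per SP5 read were 0.869, 0.776 and 0.896 with DMSO, and 2.52, 4.16 and 3.20 with fostamatinib. Each of these 4 pairs sets a gene that rose against one that did not pass the test. The gap between the groups therefore adds nothing to the results of the single genes.

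**Figure D3:**
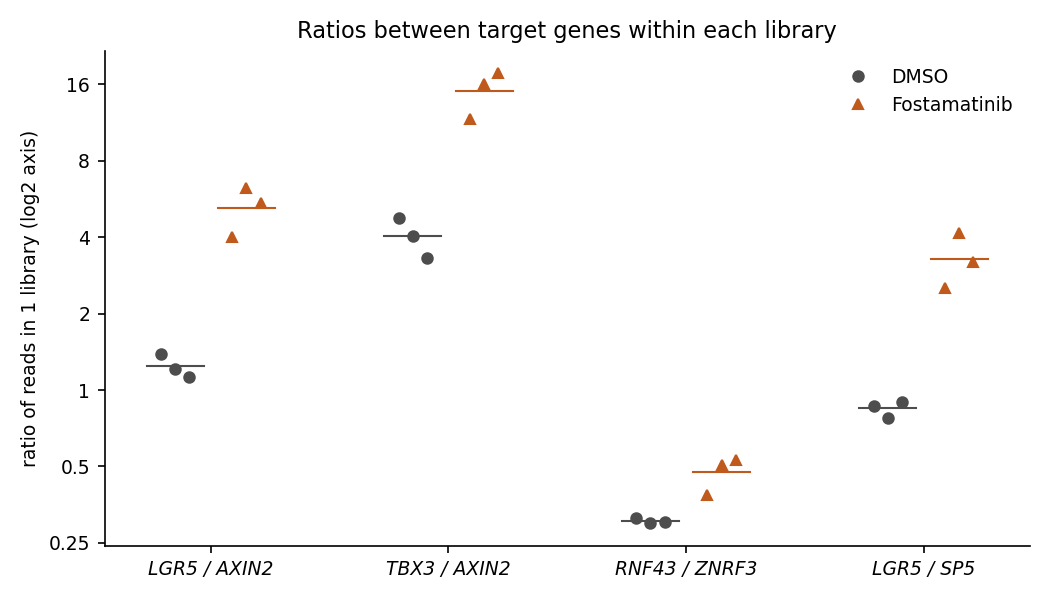
Ratio of reads between pairs of target genes within each library (y axis, log2 scale) in DMSO (circles) and fostamatinib (triangles) samples, with the mean of 3. LGR5 per AXIN2 read lies at 1.13 to 1.39 in the DMSO samples and at 4.0 to 6.23 after fostamatinib.

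The other genes of the pathway were taken from lists of 113 genes, of which 70 had values. These lists were chosen with earlier results of these data known, so their counts are descriptive. RSPO3 and SLC1A2 reached the read minimum of the tables with fostamatinib alone, so that their rise was fixed by the filter, and they are left out of the counts and medians. Among the other 68 genes 28 rose, 22 fell and 18 did not pass limma's test, and their median log2 fold change was 0.06. These counts are read beside the 23.3% of all genes that were higher, the 24.5% that were lower and the 47.8% called in either direction, and no list was tested against other genes.

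**Figure D4:**
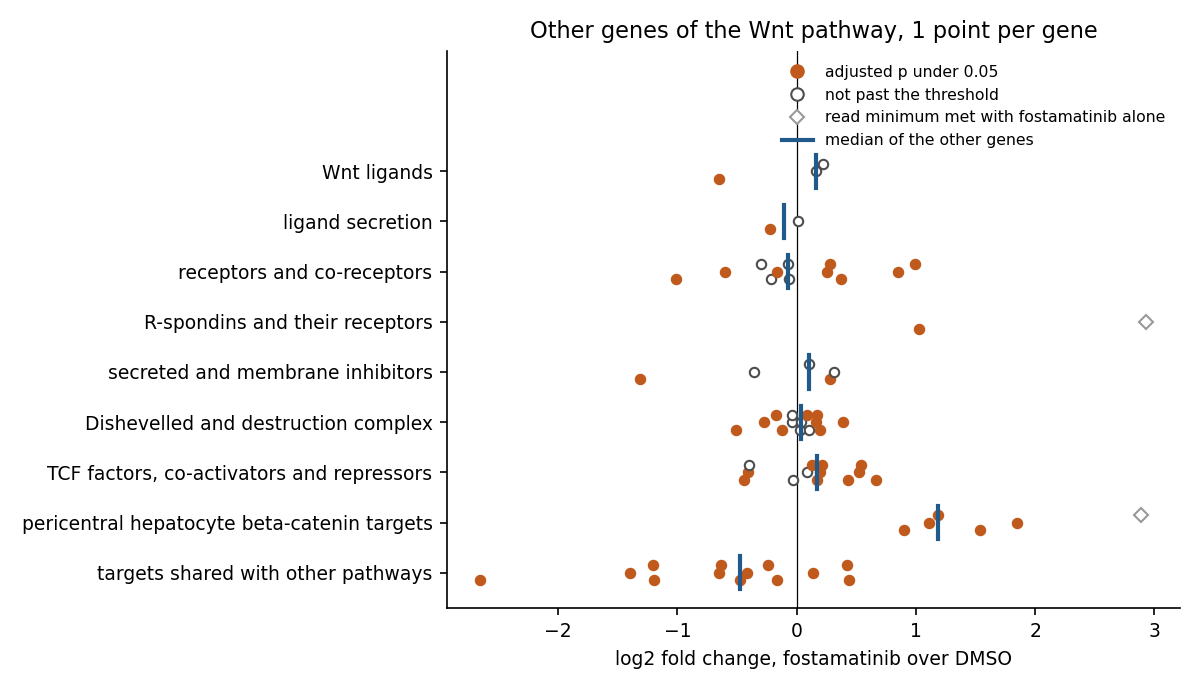
Log2 fold change, fostamatinib over DMSO (x axis), of the 70 pathway genes with values, 1 point per gene and 1 row per list, with circles filled where the adjusted p from limma was under 0.05. Diamonds are RSPO3 and SLC1A2, which met the read minimum with fostamatinib alone, and bars mark the medians of the other genes, from -0.47 for the shared targets to 1.18 for the pericentral targets (none is drawn for the R-spondins and their receptors, where LGR4 alone is left).

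Of the 19 Wnt ligands only WNT2B, WNT3 and WNT10B had values, and the other 16 were not analysed here. WNT3, a ligand that activates beta-catenin signalling, had 104, 117 and 129 reads with DMSO, compared with 63, 71 and 74 with fostamatinib, and fell by 0.66 ± 0.14 (SE) on the log2 scale, with an adjusted p of 1.59e-04 in limma's test. WNT2B and WNT10B did not pass the test, with log2 fold changes of 0.16 and 0.22. WLS, which carries Wnt proteins to the cell surface, had a log2 fold change of -0.22 (adjusted p = 0.0252, limma), a call lost without DMSO replicate 2 (-0.20), fostamatinib replicate 2 (-0.14) or fostamatinib replicate 3 (-0.21), and without the mean-variance trend. PORCN, which adds the lipid that Wnt proteins need, did not pass the test (0.01).

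Among the receptors and co-receptors, 12 of 15 had values, and 5 rose, 3 fell and 4 did not pass, so that 8 of 12 were called against 47.8% of all genes. The Frizzled receptors FZD4 and FZD5 rose, with log2 fold changes of 0.99 (adjusted p = 3.60e-15) and 0.85 (adjusted p = 5.20e-15, limma). FZD1 fell by 0.60 and ROR1, a receptor kinase bound by Wnt5a, fell by 1.01 on the log2 scale (adjusted p = 9.29e-06 and 2.95e-08, limma). The co-receptor LRP6 rose by less, with a log2 fold change of 0.28 (adjusted p = 4.31e-05, limma). LGR4, like LGR5 a receptor for R-spondins, rose from 8.52 ± 0.10 to 9.54 ± 0.01 log2 CPM (SD, n = 3 each), with a log2 fold change of 1.02 (adjusted p = 1.59e-21, limma). LGR4 was by far the more abundant of these receptors, and LGR5 reads per LGR4 read were 0.00993 to 0.0107 in the DMSO samples and 0.0151 to 0.0175 after fostamatinib. RSPO3, the R-spondin ligand and the only other gene of that list with values, had 1, 3 and 1 reads with DMSO, compared with 17, 11 and 14 with fostamatinib. It met the read minimum with fostamatinib alone, so its direction was fixed by the filter, and these reads are no support for a rise. RSPO3 lay below the 20 reads asked of a named gene and was singled out after its values were seen.

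The secreted and membrane inhibitors outside the 10 target genes had values for 5 of 16 genes. Of these 1 rose, 1 fell and 3 did not pass the test, beside 47.8% of all genes called. KREMEN1, a receptor for DKK proteins, rose with a log2 fold change of 0.28 (adjusted p = 6.06e-03, limma). NOTUM, an enzyme that removes the lipid from Wnt proteins and is itself a Wnt target, had 18, 15 and 20 reads with DMSO, compared with 9, 3 and 9 with fostamatinib. The groups did not overlap, and NOTUM fell with a log2 fold change of -1.32 (adjusted p = 7.91e-03, limma), which became -0.81 and lost its call without fostamatinib replicate 2, and whose call was also lost without the mean-variance trend. Both genes were named after their values were seen.

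Among Dishevelled and the destruction complex with its substrate, 14 of 15 genes had values, 5 rose, 4 fell and 5 did not pass, with log2 fold changes between -0.51 and 0.39. The 9 of 14 called compare with 47.8% of all genes, but the count depended on the fit. Without the mean-variance trend 5 of 14 passed, where 6382 of the 16305 genes were called. Without fostamatinib replicate 2 it was again 5 of 14, where 6972 genes were called. CTNNB1, which encodes beta-catenin, had 6153, 6851 and 6631 reads with DMSO, compared with 6580, 6639 and 6330 with fostamatinib, with a log2 fold change of 0.08 (adjusted p = 0.0441, limma). This call was lost in 8 of the 14 alternatives, with log2 fold changes from 0.07 to 0.10 and adjusted p-values of up to 0.152. The call was kept only without DMSO replicate 3 among the single omissions. APC rose with a log2 fold change of 0.39 (adjusted p = 2.86e-06) and AMER1, a membrane partner of APC, fell by 0.51 (adjusted p = 2.81e-03, limma). The log2 fold change of AXIN1 was -0.18 (adjusted p = 0.0171, limma), and its call was lost without DMSO replicate 1 (-0.15), DMSO replicate 2 (-0.14), fostamatinib replicate 2 (-0.17) or fostamatinib replicate 3 (-0.15), and without the mean-variance trend. GSK3B, a kinase of the complex, did not pass the test (0.04, adjusted p = 0.503, limma).

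Of the TCF factors, co-activators and repressors, 13 of 14 had values, 8 rose, 2 fell and 3 did not pass, beside the 23.3% of all genes that were higher and the 24.5% that were lower. BCL9L, a co-activator that binds beta-catenin, rose with a log2 fold change of 0.54 (adjusted p = 1.88e-13, limma). CTNNBIP1, which blocks the binding of beta-catenin to TCF factors, rose by 0.53 (adjusted p = 1.30e-06), and the Groucho co-repressor TLE4 by 0.67 (adjusted p = 2.21e-07, limma). TCF7L2, a principal TCF factor of liver and gut, did not pass the test, with a log2 fold change of -0.03 (adjusted p = 0.808, limma) that became 0.04 without DMSO replicate 2 and 0.02 without DMSO replicate 3.

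The pericentral hepatocyte targets are genes that depend on beta-catenin around the central vein of the liver. The 5 genes that met the read minimum in both groups rose (23.3% of all genes did), with a median log2 fold change of 1.18, and another 5 of the list, CYP2E1, CYP1A2, NR1I3, SLCO1B3 and LECT2, were not analysed here. GLUL, the glutamine synthetase that is the classical marker of this zone, had 2156, 2538 and 2560 reads with DMSO, compared with 4300, 4225 and 4187 with fostamatinib. Its log2 fold change was 0.90 (SE 0.04, adjusted p = 2.86e-19, limma), with no overlap of the groups. RHBG, an ammonium transporter, rose by 1.85, RGN, a calcium-binding protein, by 1.54, OAT, the ornithine aminotransferase, by 1.18 and AVPR1A, a vasopressin receptor, by 1.11 on the log2 scale (adjusted p of 1.59e-16, 1.45e-15, 4.86e-22 and 1.39e-05, limma). SLC1A2, a glutamate transporter, had 3, 1 and 1 reads with DMSO, compared with 7, 21 and 16 with fostamatinib, and is not counted among them. It met the read minimum with fostamatinib alone, so its direction was fixed by the filter, and it too was named after its values were seen. The hepatocyte lineage markers moved in the same direction, with 8 of 8 higher (23.3% of all genes), a median log2 fold change of 0.52 and a log2 fold change of 1.02 for HNF4A, the hepatocyte nuclear factor. Their part in the rise of the pericentral genes, LGR5 and TBX3 was not tested.

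The targets shared with other pathways, which growth factor signals also control, had values for 13 of 15 genes. Of these 10 fell, beside 24.5% of all genes, and BIRC5, PPARD and ID2 rose, with log2 fold changes of 0.14, 0.42 and 0.44. For BIRC5 the groups overlapped, and its adjusted p was 0.0281 (limma). CCND1, which encodes cyclin D1, had 2843, 2980 and 3078 reads with DMSO, compared with 1116, 1044 and 1011 with fostamatinib, a log2 fold change of -1.40 (adjusted p = 2.35e-23, limma). FOSL1, an AP-1 subunit, fell by 2.65, the adhesion receptor CD44 by 1.20 and the metalloproteinase MMP7 by 1.20 on the log2 scale (adjusted p of 3.04e-17, 2.96e-24 and 2.53e-10, limma). MYC had 1277, 1392 and 1252 reads with DMSO, compared with 789, 789 and 792 with fostamatinib, and fell by 0.64 (adjusted p = 2.62e-12, limma).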

How the data were processed

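RNA-seq libraries were made from polyA-selected RNA with a directional kit. HISAT was used by the authors to align reads to hg19 and featureCounts, with GENCODE version 22, to count them. Genes that reached 5 reads in 2 of 3 samples of at least 1 group were kept, as all those listed do, and TMM scaling followed. The authors deposited log2 values, namely log2 CPM with 0.5 added to the count, in 1 table per sample. Other versions are not given in the sources used here. A ribosomal RNA gene repeated on 7 rows was used once.

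Samples were grouped by their labels. The model was that of limma 3.58.1 under R 4.3.3, by lmFit and then eBayes with its mean-variance trend. Moderation raised the residual 4 degrees of freedom to a median total of 33.9, on which the very small adjusted p-values rest. Adding 0.5 understates fold changes of genes with few reads. Reads were recovered from the log2 values for depth, ratios and alternatives. The fit was tested on simulated data. Chi-square per degree of freedom between replicates was 1.65 to 3.75, above counting error, so each sample was counted as a separate library. Tables were made with Python 3.11.15. Gene positions and transcript lengths are from GRCh37 with GENCODE version 44 mapped to it, and promoter sequences from RefSeq on GRCh38.p14.

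The target genes and lists were chosen with earlier results of these data known. Named were all 10 target genes, CTNNB1, APC, AXIN1, GSK3B, TCF7L2, LRP6, GLUL, MYC and CCND1, and at most 4 genes per list with an adjusted p under 0.05, an absolute log2 fold change of 0.5 or more, 20 or more reads on average in the higher group and no overlap of the groups. Other pathway genes given with values were named after these were seen. Alternatives covered the test, its moderation, scaling, filters, the count added, the replicate number as a block, and the omission of each sample.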

Additional observations from a re-analysis of the deposited data

How the results depend on the processing

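The 4 target genes that rose (LGR5, TBX3, RNF43 and DKK1) kept their direction and their call in all 14 alternatives, and the other 4 never passed the test. Their lowest and highest log2 fold changes with 1 sample left out were 1.57 and 1.70 for LGR5, 1.46 and 1.56 for TBX3, 0.54 and 0.72 for RNF43, and 0.44 and 0.58 for DKK1. For ZNRF3 they were -0.046 and 0.049, and the sign also turned with the library size alone as the scale (-0.008, adjusted p = 0.937, limma). For AXIN2 they were -0.54 and -0.27, for TCF7 -0.54 and -0.05, and for SP5 -0.42 and -0.17. The adjusted p-values of the 4 risen genes were largest without the mean-variance trend, up to 0.0128 for DKK1. Scaling moved the median of all genes by at most 0.0111 on the log2 scale. The number of genes called ranged from 6382 to 7977 against 7794, and that of the pathway lists from 42 to 52 against 52, RSPO3 and SLC1A2 included.

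The groups share replicate numbers in the labels, but the correlations of same-numbered deviations were 0.0278, -0.0192 and 0.0132, and not every sample correlated best with its own number, so no pairing was assumed. Under the replicate block 7977 genes were called, with 4 target genes and 51 pathway genes among them, and CTNNB1 was not called (adjusted p = 0.0515, limma). For TCF7L2 the lowest and highest log2 fold changes with 1 sample left out were -0.149 and 0.038. The cause of these turns in sign was not tested. AXIN2, TCF7 and SP5 had standard errors of 0.17 to 0.21 on the log2 scale. A fall, no change and a small rise all lie within their 95% confidence intervals (upper ends 0.04, 0.10 and 0.08).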
